A study of Mus musculus with 36 samples.

Results

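Liver transcripts were compared across the light-to-dark transition, between 6 mice culled at ZT10 (zeitgeber time, hours after lights-on) in the late light phase and 6 other mice culled at ZT14, shortly after lights-off. These were 12 of the 36 libraries of a study that sampled livers at 6 times of the day. They were chosen by the genotype and time in their titles, with 3 control and 3 knockout livers at each time, and genotype entered the fit as a covariate. Controls, called WT by the submitters, were heterozygous (THRB+/-), and knockouts, called KO, were THRB-/- mice of the line B6.129S1-Thrbtm1Df/J, in which DNA binding by thyroid hormone receptor beta is impaired. All mice were males of 2 to 3 months held in groups under a 12-h light and 12-h dark cycle, with chow and water always available. Food intake was not recorded in the sample labels. Thrb itself stood at 30.6 CPM at ZT10 and 29.6 CPM at ZT14 (mean of 6; CPM is the read count of a gene scaled to the size of its library, here by TMM over the 36 libraries), and since the altered allele is still transcribed, this level does not check the genotype labels.

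Mice are nocturnal, so lights-off opens their active and main feeding phase, and the liver turns within hours from fasting to the handling of incoming nutrients. The liver clock is a transcriptional loop in which BMAL1 (gene Arntl) and CLOCK activate the Per, Cry and Nr1d genes, whose products then repress them. Body temperature and feeding also vary over the day, and reach the liver through heat shock factor 1, insulin and glucocorticoid signalling, which act on their own sets of target genes.

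Libraries held 31931089 to 39913574 counted reads at ZT10 and 31162685 to 42530551 at ZT14, with no detectable difference in total (two-sided exact permutation test, p = 0.407, n = 6 per time). The 6 hepatocyte markers (Alb and others) summed to 73218 to 87310 CPM at ZT10 and 80748 to 89083 CPM at ZT14, and none was called. Among tested markers for Kupffer, sinusoidal endothelial, stellate, bile duct, lymphoid, neutrophil, red blood and pancreatic acinar cells, 1 was called higher and 5 lower. The higher one was Sox9, 1 of 5 bile duct markers. The lower ones were Cd79a, 1 of 6 lymphocyte markers, and 4 haemoglobin genes of 5 red blood cell markers. Over all genes tested, 15.6% were called, 7.92% higher and 7.73% lower. All 7 Kupffer cell markers had a negative fold change (median -0.31, none called), as did all 6 lymphocyte markers (median -0.62, at 5.12 CPM or less in sum) and both neutrophil markers tested (median -0.72, at 0.991 CPM or less in sum). The Kupffer cell markers had a median log2 fold change of -0.07 in WT, with 5 of the 7 negative, and of -0.53 in KO, all 7 negative. They summed to 155 to 324 CPM at ZT10 and 187 to 256 CPM at ZT14 in WT, and to 211 to 305 and 159 to 184 CPM in KO. Whether the genotypes differ in these sums was not tested. Of the 7, 3 were called lower when WT replicate c of ZT10 was left out. The 5 red blood cell markers summed to 308 to 971 CPM at ZT10 and 232 to 328 CPM at ZT14, and none of the 4 haemoglobin calls was kept when KO replicate a of ZT10 was left out. The part of these cells and of blood RNA in the results that follow was not tested. The acinar markers Cpa1 and Prss2 were at 0 in all 12 libraries. In whole tissue, a smaller number of cells of a type and less RNA per cell cannot be told apart.

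Of 17994 genes with at least 100 counts over the 36 libraries, 2816 differed between ZT14 and ZT10, which is 15.6% of the genes tested (edgeR's quasi-likelihood test, Benjamini-Hochberg adjusted p under 0.05). The changes were balanced, with 1425 genes (7.92%) higher and 1391 (7.73%) lower at ZT14, and the median log2 fold change over all genes was -0.01. Most were small: 1554 of the called genes (55.2%) changed by less than 0.5 on the log2 scale, and the median size among called genes was 0.46. A doubling or more (log2 fold change of at least 1) was reached by 238 called genes, and a drop of the same size by 178. In 731 genes (4.06% of those tested) all 6 ZT14 livers lay above all 6 ZT10 livers, and in 684 (3.8%) all lay below. At ZT10, WT and KO libraries with the same replicate letter deviated together, with correlations across genes of 0.27 to 0.37, although they came from different mice. When the WT and KO counts of one time and letter were summed, leaving 3 values per time, 1529 genes were called, 862 higher and 667 lower.

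This step held more called genes than any of the other 5 steps of 4 h, each tested on its own 12 libraries in the same way. ZT2 to ZT6 gave 1754 called genes (9.75%) and ZT6 to ZT10 gave 1006 (5.59%). The steps within the dark phase were smaller, with 724 (4.02%) from ZT14 to ZT18 and 141 (0.784%) from ZT18 to ZT22, and the step across lights-on, ZT22 to ZT2, gave 197 (1.09%). Neighbouring steps share 6 libraries, and whether these counts differ from one another was not tested.

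**Figure D1:**
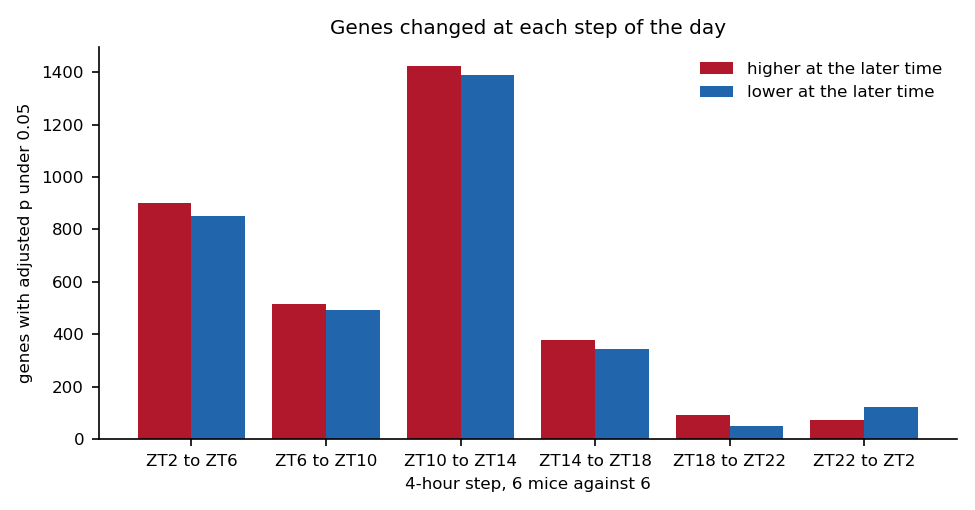
Number of genes with an adjusted p under 0.05 (vertical axis) at each 4-h step (horizontal axis, 6 mice against 6), with genes higher at the later time in red and lower in blue. The ZT10 to ZT14 step has the tallest bars, 1425 higher and 1391 lower, and the ZT18 to ZT22 step the shortest.

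Genes of the heat shock response had the largest share of members called higher among the 21 gene lists examined, 82.6%. These genes encode chaperones, which keep other proteins folded, and their helpers, and heat shock factor 1 is their known activator. Of 23 listed genes, 19 were higher at ZT14 and none was lower, against 7.92% of all genes higher, and the median log2 fold change of the list was 0.71. All 23 had a positive fold change. In 18 the 6 ZT14 livers all lay above the 6 ZT10 livers, against 4.06% of all genes. The promoters of the following genes are shown because they carry the letters GAANNTTC, given in capitals, a part of the response element of that factor. Whether the factor binds them was not tested. The letters read the same on both strands. The stretches end before the annotated start (RefSeq, build GRCm38.p6).
Hspa1b, chr17:34959320-34959357 (- strand): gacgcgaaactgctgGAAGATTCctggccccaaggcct
Hspb1, chr5:135887787-135887844 (+ strand): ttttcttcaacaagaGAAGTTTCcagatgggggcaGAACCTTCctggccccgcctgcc
The letters began 104 bases before the start in Hspa1b, and 117 and 97 bases before it in Hspb1. They occurred in 10 of the 19 listed heat shock genes with a promoter sequence and in 9.04% of all 27025 genes with one (window of 250 bases before to 50 after the start). Of those 10 genes, 9 were called higher at ZT14, against 19 of the 23 listed, the exception being Hspd1.

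Hspa1b, the inducible cytosolic HSP70 (chr17:34956436-34959238), ranged from 8.72 to 28.1 CPM at ZT10 (median 9.98) and from 46.6 to 131 CPM at ZT14 (median 79.7). The highest ZT10 value, in WT replicate a, stood apart from the other 5 but still below every ZT14 liver. The rise was 6.35-fold (log2 2.67, SE 0.255, adjusted p = 1.9e-05). Its neighbour Hspa1a, which shares 99.2% identity with it over 78.5% of the shorter transcript, rose by 2.12 on the log2 scale from a mean of 0.678 to 2.73 CPM, and reads of the pair may have been counted for either gene. The same WT replicate a held 2.61 CPM of Hspa1a at ZT10, above the lowest ZT14 livers, and the call was lost when WT and KO were summed.

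Hsp90aa1, the inducible HSP90 (chr12:110690605-110702728), stood at 72.5 to 120 CPM at ZT10 (mean 98.6) and 291 to 390 CPM at ZT14 (mean 356). The times were far apart in both genotypes, and the rise was 3.62-fold (log2 1.86, SE 0.11, adjusted p = 7.9e-07). A processed pseudogene, Gm12346, is 99.5% identical to Hsp90aa1 and rose alongside by 1.78, so its reads may belong to the parent gene. Hspa8, the constitutive HSP70, went from 772 to 1093 CPM up to 1989 to 2419 CPM (log2 1.27, SE 0.0836, adjusted p = 1.4e-06). Hsph1, an HSP110 that reloads HSP70, rose by 1.81 (SE 0.132) from 30.5 to 49.4 CPM up to 102 to 166 CPM. None of these genes had overlapping values between the times.

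Co-chaperones and small heat shock proteins moved with them. Hspb1 (HSP27) rose from 15.1 to 33.0 CPM up to 44.3 to 71.3 CPM (log2 1.42, SE 0.171), and Bag3, which links HSP70 to selective autophagy, rose by 1.14 (SE 0.113). Chordc1, Dnaja1, Stip1 and Fkbp4, which all work with HSP70 or HSP90, rose by 0.93, 0.89, 0.83 and 0.66. Smaller rises were called for Hspe1, the mitochondrial co-chaperonin (0.38), and for Ahsa1, an activator of the HSP90 ATPase (0.57). The genes not called were Hspa4 (0.14), the mitochondrial chaperonin Hspd1 (0.17) and the factors Hsf1 (0.08) and Hsf2 (0.02) themselves. The cold-inducible RNA-binding protein gene Cirbp, known to be repressed by warmth, fell by 0.61 (SE 0.128, adjusted p = 0.00516) from 25.3 to 42.7 CPM to 18.9 to 26.8 CPM, with overlap between the times, whereas Rbm3 stood at -0.03 (adjusted p = 0.875).

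**Figure D2:**
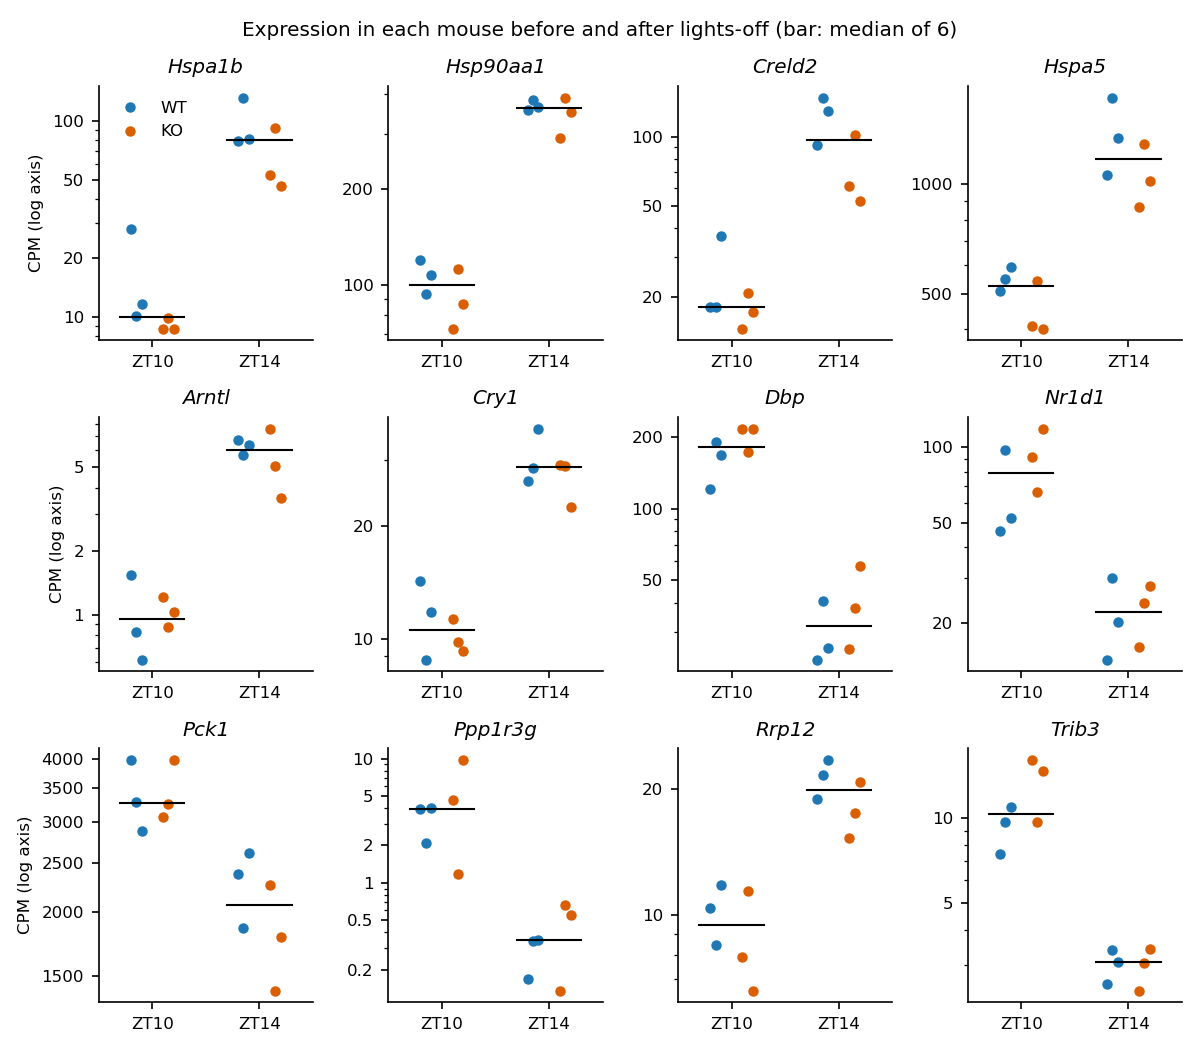
CPM in each of the 12 livers (log axis, 3 WT points in blue and 3 KO points in orange per time, bar at the median of 6) for 12 genes of the heat shock, unfolded protein, clock, fed-state, fasting and ribosome biogenesis lists. In no panel do the ZT10 and ZT14 livers overlap, and for Hspa1b the ZT10 liver at 28.1 CPM is below the lowest ZT14 liver at 46.6 CPM.

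Chaperones of the endoplasmic reticulum and other targets of the unfolded protein response also rose. This response adjusts folding capacity to the load of secreted proteins, which is large in hepatocytes. Of 27 listed genes, 17 were higher at ZT14 (63%, against 7.92% of all genes) and 1 was lower (3.7%, against 7.73%). The median log2 fold change of the list was 0.42. The ER stress element, bound by ATF6 and XBP1 with NF-Y, is shown in capitals for Hspa5, a well-known target, and for Creld2, the member with the largest rise. Its letters are CCAAT and CCACG with 9 bases of any kind between them, on either strand.
Hspa5, chr2:34772010-34772058 (+ strand): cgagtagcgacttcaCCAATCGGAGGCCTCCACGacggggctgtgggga
Creld2, chr15:88819505-88819553 (+ strand): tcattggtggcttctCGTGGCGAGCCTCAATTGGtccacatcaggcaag
The element began 65 bases before the start of Hspa5 and, on the opposite strand, 126 bases before that of Creld2. It was found in 9 of the 24 listed genes with a promoter sequence and in 0.137% of all genes with one. Of the 9 genes, 6 were called higher, against 17 of the 27 listed, and Calr, Canx and Derl3 were not called.

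Creld2, a secreted ER stress protein (chr15:88819646-88826683), went from 14.6 to 37.1 CPM (median 18.2) up to 52.6 to 148 CPM (median 96.9), a rise of 4.52-fold (log2 2.18, SE 0.214, adjusted p = 2.3e-05). The 37.1 CPM of WT replicate c stood above the other ZT10 livers, and no ZT14 liver was as low. Hspa5, the main ER chaperone BiP, rose 2.42-fold from 401 to 594 CPM up to 868 to 1732 CPM (log2 1.28, SE 0.13, adjusted p = 2.6e-05). Sdf2l1, Syvn1, Hyou1, Manf and Dnajb9, genes of ER folding, export and degradation, rose by 1.54, 1.47, 1.41, 1.33 and 1.08. The pro-apoptotic factor Ddit3 (CHOP) rose by 0.95 from a mean of 7.54 to 14.8 CPM. It overlaps Mars on the opposite strand, with mean counts of 398 for Ddit3 and 2614 for Mars. The libraries were not strand-specific, so part of the Ddit3 reads may come from Mars. Xbp1 (0.02, adjusted p = 0.951) and the sensor Ern1 (-0.02, adjusted p = 0.949) were not called, and the calls of Atf4 (0.25) and Pdia6 (0.24) were lost when any of 9 single libraries was left out.

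Trib3 was the exception. This pseudokinase gene, a target of the ATF4 branch, fell 3.73-fold from 7.41 to 16.1 CPM (median 10.3) to 2.43 to 3.43 CPM (median 3.07), with all ZT14 livers below all ZT10 livers (log2 -1.90, SE 0.166, adjusted p = 9.9e-06). Chac1, a glutathione-degrading enzyme and another ATF4 target outside the list, fell by 1.84 (SE 0.402, adjusted p = 0.00649) from a median of 4.8 to 1.38 CPM. Ddit3 and Atf3, which the same branch is known to induce, were both higher.

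All 13 core clock genes were called, against 15.6% of all genes, 5 higher (38.5%, against 7.92%) and 8 lower (61.5%, against 7.73%). The times did not overlap in 4 of the higher and 4 of the lower genes, against 4.06% and 3.8% of all genes. In the positive arm of the loop Arntl and Clock rose. Arntl went from 0.612 to 1.55 CPM (median 0.953) up to 3.57 to 7.62 CPM (median 6.04), a rise of 5.67-fold (log2 2.50, SE 0.227, adjusted p = 1.3e-05), and Clock rose by 0.80 (SE 0.126). Npas2, a CLOCK paralog, was at 0.295 CPM or less in every liver, and its fall of 1.85 (adjusted p = 0.0493) lost its call in 14 alternatives. Rora, an activator of Arntl, fell by 0.34.

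The repressors split. Cry1, the late repressor of the loop, rose from 8.78 to 14.3 CPM up to 22.5 to 36.5 CPM (log2 1.40, SE 0.121, adjusted p = 9.8e-06), and Per2 rose by 0.76 (SE 0.071) from 46.4 to 60.5 CPM up to 84.2 to 108 CPM. Per3 fell by 0.84 (SE 0.0809), Ciart by 1.15 (SE 0.118), Nr1d2 by 1.08 (SE 0.0923) and Cry2 by 0.28, the last call lost with all 36 libraries in the fit or when WT and KO were summed. Nr1d1 (REV-ERBalpha, chr11:98767932-98775333) fell 3.52-fold from 46.6 to 119 CPM to 14.2 to 30.1 CPM (log2 -1.81, SE 0.233). It overlaps Thra on the opposite strand and the libraries were not strand-specific, so part of its reads may come from Thra. Per1 fell by 0.63 (adjusted p = 0.0416), with values of 58.3 to 130.0 CPM at ZT10 and 40.1 to 81.7 CPM at ZT14 that overlapped, and 8 of the 12 single libraries lost the call when left out.

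Among 9 clock output genes, 6 were lower (66.7%, against 7.73% of all genes) and 1 was higher (11.1%, against 7.92%). Hlf and Bhlhe40 were not called. Dbp, a PAR bZIP factor that binds D-boxes, fell 5.22-fold from 121 to 218 CPM (median 183) to 22.9 to 57.0 CPM (median 31.8; log2 -2.39, SE 0.194, adjusted p = 6.3e-06). Upp2, a uridine phosphorylase, fell by 1.03, Bhlhe41 by 1.52, Usp2 by 0.79 and Tef by 0.69. Nfil3, the D-box repressor that opposes Dbp, rose from 12.8 ± 1.98 to 24.4 ± 3.36 CPM (SD, n = 6; log2 0.94, SE 0.106, adjusted p = 5.9e-05). In 6 of the 7 called genes the times did not overlap, as in 1364 of all 2816 called genes. The times overlapped in Wee1 (-0.52), whose call was lost with all 36 libraries in the fit, and in Hlf (0.06) and Bhlhe40 (0.10).

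Promoter stretches of clock genes that moved in either direction are given with the element each is known for in capitals: E-boxes (CACGTG, bound by BMAL1 and CLOCK) in Ciart, which fell, and Cry1, which rose, D-boxes (TTATGTAA) in Per3, which fell, and a ROR element (TAGGTCA, here on the opposite strand) in Nfil3, which rose.
Ciart, chr3:95882252-95882359 (- strand): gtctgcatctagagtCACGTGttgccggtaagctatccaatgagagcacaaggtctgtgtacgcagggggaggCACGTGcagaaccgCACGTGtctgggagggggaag
Cry1, chr10:85185094-85185129 (- strand): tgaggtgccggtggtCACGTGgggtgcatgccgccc
Per3, chr4:151044801-151044885 (- strand): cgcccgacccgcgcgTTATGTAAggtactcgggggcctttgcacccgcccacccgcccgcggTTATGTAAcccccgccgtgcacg
Nfil3, chr13:52981040-52981066 (- strand): cgcggcgctcggaacTGACCTActaac
The E-boxes began 116, 58 and 44 bases before the start of Ciart and 60 before that of Cry1. An E-box stood in 3 of the 11 core clock genes with a promoter sequence and in 8.09% of all genes. A D-box stood in 1 of the 11 and 1.11%, and a ROR element in 1 of the 11 (Arntl) and 2.97%. Nfil3 was counted among the clock output genes, of which 7 had a promoter sequence. Of these 7, 1 (Nfil3) held a ROR element, 2 an E-box and 0 a D-box. The 2 E-box genes named here moved in opposite directions between the same livers.

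The fed-state list, of lipogenic and glycolytic genes, had a median of 0.39 over 16 genes, and 14 had a positive fold change. Insulin and SREBP1c are known to induce genes of this kind, which was not checked for each member. Of the 16, 4 were called higher (25%, against 7.92% of all genes) and 1 lower. Ppp1r3b, which targets protein phosphatase 1 to glycogen, rose 2.83-fold (adjusted p = 0.00105) from a median of 143 to 518 CPM, although WT replicate a at ZT10 already held 368 CPM. Pnpla3, a lipase-like protein of lipid droplets, rose by 2.30 (SE 0.515) at 3.95 CPM or less. Fasn went from a mean of 931 to 1563 CPM with SDs of 372 and 517 (log2 0.75, adjusted p = 0.11), and Srebf1 stood at 0.35 (adjusted p = 0.0831), Scd1 at 0.43 and Acly at -0.03. The call of the elongase Elovl6 (0.70, adjusted p = 0.045) was lost when any of 8 single libraries was left out.

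The gene of the fed-state list called lower was Ppp1r3g, which encodes another glycogen-targeting subunit. Its place in the list does not show that feeding induces it. It fell 11.3-fold from 1.18 to 9.84 CPM (median 3.95) to 0.135 to 0.662 CPM (median 0.345; log2 -3.50, SE 0.466, adjusted p = 0.00021). This was the steepest fall among the genes named by the rule. Among 17 fasting-induced genes, 5 were lower (29.4%, against 7.73% of all genes) and 2 higher. Pck1, the gluconeogenic PEPCK, fell by 0.74 (SE 0.136) from 2887 to 3983 CPM to 1403 to 2608 CPM without overlap, though the call was lost with all 36 libraries in the fit (adjusted p = 0.0925). Lpin1 fell by 0.95, Irs2 by 0.86, the coactivator Ppargc1a by 0.75 and Klf15 by 0.36. The calls of Irs2 and Klf15 were lost when WT and KO were summed, and that of Irs2 also with all 36 libraries in the fit and without WT replicate b of ZT10. Pdk4, a kinase that inhibits pyruvate dehydrogenase, rose by 1.58 (SE 0.242) from 1.22 to 2.62 CPM up to 3.57 to 9.3 CPM. Irs1 rose by 0.85. G6pc (0.20) and Igfbp1 (-0.28) were not called, nor was Fgf21 at 1.05 ± 0.917 and 3.65 ± 4.86 CPM (SD, n = 6; adjusted p = 0.112).

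Of 25 cholesterol synthesis genes, 5 were lower (20%, against 7.73% of all genes) and 1 was higher, with a median of -0.17. Hmgcs1, at the entry of the pathway, fell by 0.80 (SE 0.113, adjusted p = 0.00034) from 106 to 176 CPM to 65.3 to 103 CPM, and Msmo1, Stard4, Mvk and Fdft1 fell by 0.73, 0.59, 0.56 and 0.34, the call of Fdft1 being lost with all 36 libraries in the fit or when WT and KO were summed. Insig1, whose product holds the SREBPs back, rose by 0.52 (adjusted p = 0.0481), a call lost when any of 9 libraries was left out. In the next step, ZT14 to ZT18, which shares the ZT14 livers, 11 of the 25 were higher and none was lower. Over all 17994 genes, 379 were higher and 345 lower in that step.

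Of 18 bile acid genes, 1 was higher and 2 were lower, a share called of 16.7% against 15.6% of all genes. The export pump Abcb11 fell by 0.57 (SE 0.103), and Cyp2c70, which makes muricholic acids, rose by 0.71 (SE 0.188). Cyp7a1, the rate-limiting enzyme of bile acid synthesis, had means of 152 ± 69.4 and 204 ± 96.6 CPM (SD, n = 6) and was not called (0.32, adjusted p = 0.576). Of 32 PPARalpha targets, which serve fatty acid oxidation, 2 were higher and none was lower (6.25% called), namely the lipid droplet protein Plin5 (1.05, SE 0.105), from 27.5 to 40.0 CPM up to 59.1 to 77.2 CPM without overlap, and the thioesterase Acot1 (0.93, SE 0.241), a call lost with edgeR's robust estimate of dispersion.

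Of 40 ribosome biogenesis factors, 22 were higher (55%, against 7.92% of all genes), 18 were not called and none was lower. Their median was 0.34 against -0.01 for all genes, and 5 of the 40 had a negative fold change. Rrp12, a factor of pre-ribosome export, rose from 6.56 to 11.8 CPM up to 15.3 to 23.6 CPM (log2 1.06, SE 0.131, adjusted p = 0.00012). Nolc1, Nop58, Nop2, Bysl and Nop16, all nucleolar assembly factors, rose by 0.81, 0.79, 0.69, 0.69 and 0.67, and the polymerase I subunits Polr1a and Polr1b by 0.36 and 0.49. The abundant nucleolar proteins Ncl (0.01), Npm1 (-0.13) and Fbl (0.10) were not called. None of the 76 cytosolic ribosomal protein genes was called (median 0.01), nor any of 31 proteasome genes (median -0.03). Of 76 oxidative phosphorylation genes, 1 was lower, Atp5s (-0.56).

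Of 15 immediate early genes, which respond within minutes to stimuli, 3 were higher and 2 lower, a share called of 33.3% against 15.6% of all genes, with a median of -0.15. Atf3, a stress-induced repressor, rose from 0.799 to 1.39 CPM up to 1.67 to 4.63 CPM (log2 1.71, SE 0.229), Jun rose by 0.64 and Btg2 by 0.51. Junb fell by 0.94 (SE 0.0906) from 21.4 to 29.3 CPM to 11.0 to 14.7 CPM. It overlaps Prdx2 on the opposite strand (mean counts 668 for Junb and 4933 for Prdx2), so part of its reads may come from Prdx2. Egr1 fell by 1.01, a call lost with all 36 libraries in the fit (adjusted p = 0.252). Fos (0.73, adjusted p = 0.357) and Myc (-0.30, adjusted p = 0.837) varied widely among livers of one time. Of 17 glucocorticoid-responsive genes tested, 3 were higher and 2 lower (29.4% called). Klf9 fell by 1.08 (SE 0.154) and Per1 is given above, whereas Cdkn1a, Ddit4 and Fkbp5 rose by 2.43, 1.20 and 0.80. The calls of Ddit4 and Fkbp5 were each lost in 4 alternatives, for Ddit4 without KO replicate a of either time among others and for Fkbp5 without KO replicate c of ZT10 or b of ZT14. Tsc22d3 (0.53, adjusted p = 0.163), Tat (0.42, adjusted p = 0.204) and Dusp1 (0.46, adjusted p = 0.379) were not called.

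**Figure D3:**
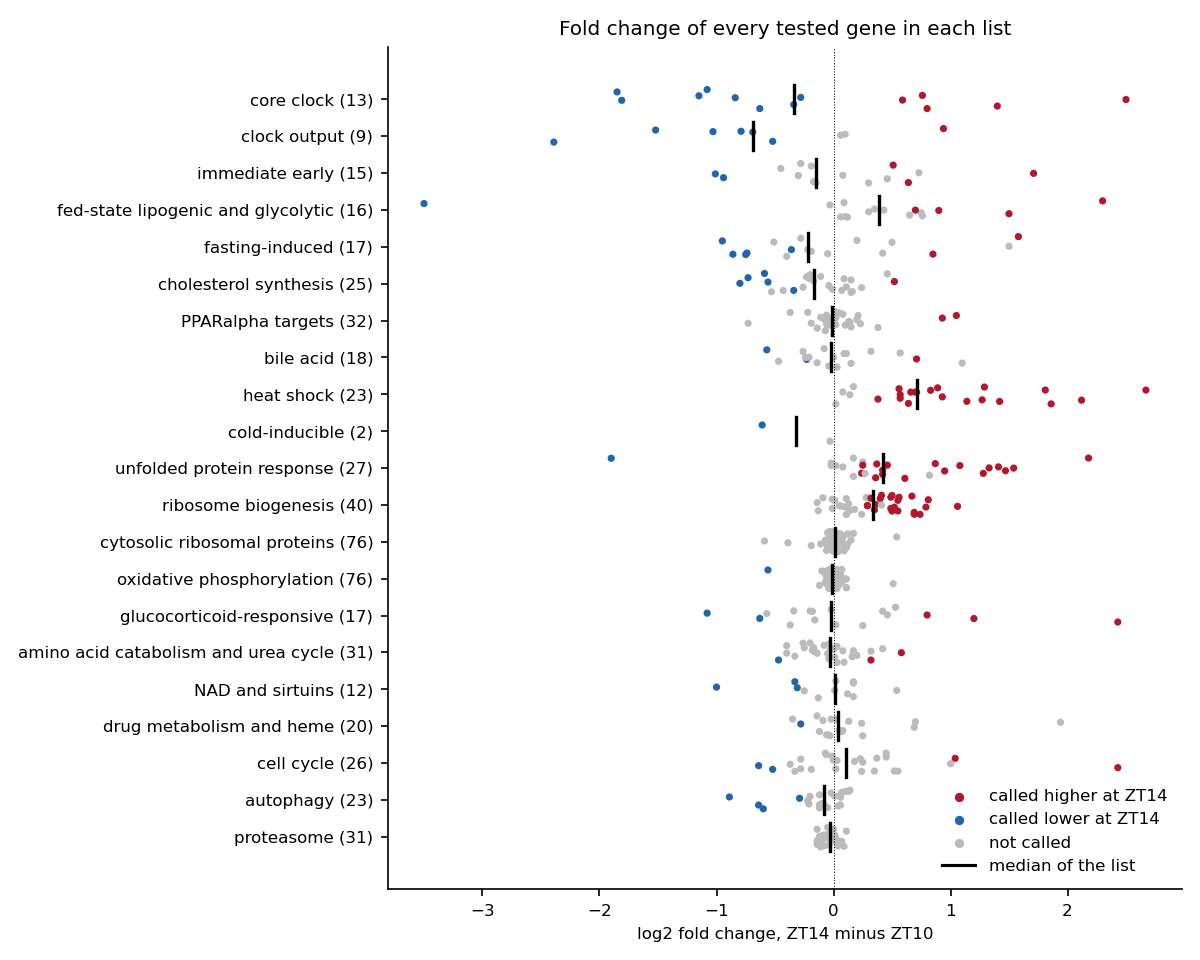
Log2 fold change (ZT14 minus ZT10, horizontal axis) of every tested gene of the 21 lists (number in brackets), red where called higher, blue where called lower and grey where not called, with a black line at each list's median. The heat shock list lies wholly to the right of 0 with a median of 0.71, the core clock list is split, and the ribosomal protein, proteasome and oxidative phosphorylation lists gather at 0.

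Further genes were named by size alone, from the 1233 genes that were called, at 2 CPM or more on average, free of overlap between the times and alike in direction in both genotypes. Among the 12 with the largest rise, Clic3, a chloride channel family protein, rose by 2.66 (SE 0.552) from 0.365 to 4.54 CPM up to 5.87 to 26.7 CPM. It overlaps Paxx on the opposite strand. The cell cycle inhibitor Cdkn1a (p21) went from 0.647 to 1.35 CPM up to 2.26 to 11.0 CPM (log2 2.43, SE 0.379, adjusted p = 0.00067). Angptl8, a feeding-induced inhibitor of lipoprotein lipase, rose by 1.86 (SE 0.238) from 63.5 to 106 CPM up to 173 to 525 CPM, and lies within Dock6 on the opposite strand. Lrfn3 and Zfp9 rose by 1.89 and 1.81.

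Rgs16, a regulator of G protein signalling, had the second largest fall by this rule, 7.77-fold, from 96.4 to 323 CPM (median 199) to 10.5 to 34.1 CPM (median 25.1; log2 -2.96, SE 0.32, adjusted p = 4.3e-05). No ZT14 liver came near the lowest ZT10 liver. Clec2h, a C-type lectin, fell by 2.26 (SE 0.308) from 16.8 to 35.9 CPM to 3.13 to 10.4 CPM. Ppargc1b, a coactivator related to Ppargc1a, fell by 1.48 (SE 0.17) from a median of 5.66 to 2.09 CPM. The long noncoding RNAs Gm31583 and Gm36041 fell 2.95-fold and 2.82-fold. The antisense RNA Gm15998 fell 2.64-fold, though its reads cannot be told from those of Efna3 on the other strand.

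The step was also taken within each genotype. In WT livers 819 genes were called (4.55%), 419 higher and 400 lower, and in KO livers 949 (5.27%), 515 higher and 434 lower, with 3 mice per time. These counts rested on single libraries. The WT count was 272 without ZT14 replicate c, 299 without ZT10 b, 340 without ZT14 b and 496 without ZT14 a, and the KO count 377 without ZT10 replicate a, 380 without ZT10 c, 543 without ZT14 b and 629 without ZT14 c. Shared calls numbered 507, which is 61.9% of the WT list and 53.4% of the KO list, all in the same direction. All 2816 genes called over both genotypes had the same sign in WT and in KO, a pattern that calling them jointly favours. Over all 17994 genes, called or not, the 2 fold changes correlated at r = 0.408, a value across genes of 1 set of libraries each.

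No gene passed the test of the difference between the steps of the 2 genotypes in edgeR (0 of 17994, 0%), with 563 at an unadjusted p under 0.05. DESeq2 called 1, Mup4, and edgeR without a filter on low counts called 1, Mup10, both of the major urinary protein family whose near-identical copies share reads; neither name came from the rule. The smallest unadjusted p was that of Clec4g, a lectin of sinusoidal endothelium, which stood at 29.0 to 33.7 CPM at ZT10 and 32.9 to 47.0 CPM at ZT14 in WT, and at 37.8 to 39.6 and 28.1 to 30.0 CPM in KO (difference KO minus WT -0.77 on the log2 scale, adjusted p = 1, edgeR). The 7 sinusoidal endothelium markers, Clec4g among them, had a median step of 0.36 in WT, all 7 positive, and of -0.35 in KO, 6 of them negative. They summed to 158 to 183 CPM at ZT10 and 167 to 238 CPM at ZT14 in WT, and to 192 to 209 and 145 to 168 CPM in KO, and their part in the value of Clec4g was not tested. Hsf2bp, at 0 in the 3 WT livers of ZT10 and at 0.371 CPM or less elsewhere, Npl (-1.61), Sp110 (-1.16), 3110070M22Rik (1.92) and Lrrc32 (-0.71) came next, each at an adjusted p of 1. The heat shock list had a median of 0.71 in WT and 0.71 in KO, the unfolded protein response list 0.44 and 0.38, and ribosome biogenesis 0.32 and 0.36. With 3 mice per group, this does not show that the genotypes step alike.

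**Figure D4:**
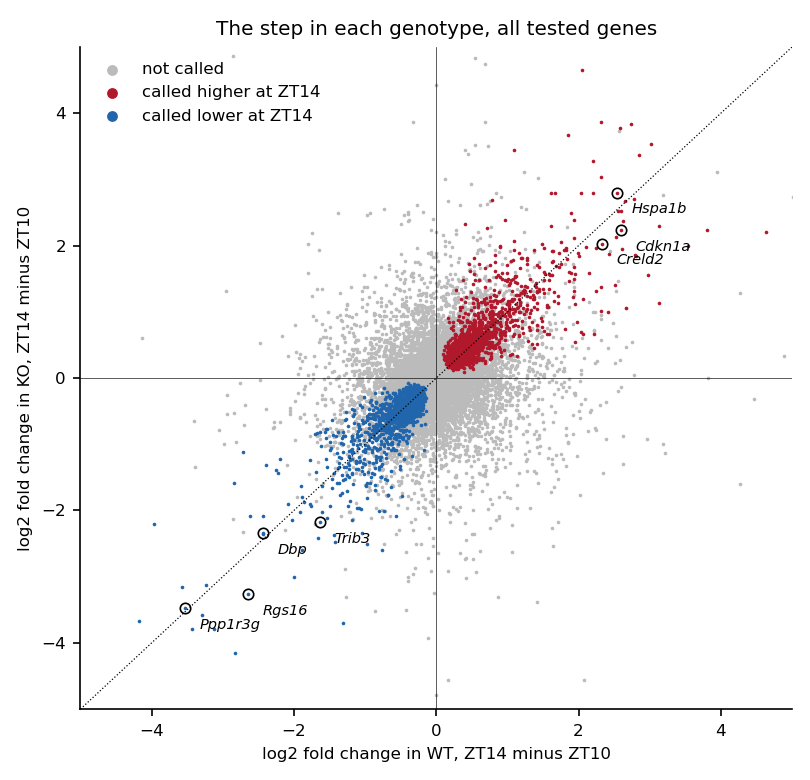
Log2 fold change (ZT14 minus ZT10) in KO (vertical axis) against WT (horizontal axis) for all tested genes, red where called higher over both genotypes, blue where called lower, grey otherwise, with 7 genes circled and the dotted line marking equal change. The called genes lie in the lower left and upper right parts of the plot only, and 10 genes (1 of them called) fall outside the axes, which end at 5 in each direction.

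The opposite transition of the day, lights-on between ZT22 and ZT2, uses 12 other libraries. With 197 called genes it shared 108 with lights-off, which is 3.84% of the lights-off list and 54.8% of the lights-on list. Of the 108, 102 moved in opposite directions at the 2 transitions and 6 in the same. When the lights-on step was subtracted from the lights-off step over all 36 libraries, 3102 genes differed (17.2%). Of these, 1544 had the larger value at lights-off and 1558 the smaller, and 2103 were among the 2816. This difference contains the same ZT10 and ZT14 livers as the lights-off calls, so it gives no separate support for them. Of the heat shock list 18 of 23 genes differed, all with the larger value at lights-off, and Hsp90aa1 was at 2.39 (adjusted p = 1.3e-08) and Hspa1b at 1.85 (adjusted p = 0.00634). From the unfolded protein response list 13 differed upward and 1, Trib3 (-2.44), downward, and from ribosome biogenesis 19 upward and 1 downward.

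Clec2h and Chac1 were among those that reversed, falling at lights-off by 2.26 and 1.84 and rising at lights-on by 1.47 and 1.51. The 6 genes called in the same direction at both were Ciart, Per3, Usp2, Tef and Wee1, lower at each, and Nhsl1, higher at each. Usp2 fell by 0.79 at lights-off and by 2.49 at lights-on, and Wee1, a kinase that delays mitosis, by 0.52 and 1.59. Ciart averaged 39.2 ± 7.52 CPM at ZT10 and fell to 17.6 ± 1.77 at ZT14, 1.5 ± 0.593 at ZT22 and 0.349 ± 0.194 at ZT2 (SD, n = 6 each, 36-library scaling).

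The chaperones differed in how long they stayed high. Hspa1b averaged 81.2 ± 30.9 CPM at ZT14, 22.9 ± 14.7 at ZT18 and 7.92 ± 1.12 at ZT22 (SD, n = 6), and no other sampled time had a mean above 22.9 CPM. Hsp90aa1 was at 361 ± 36.4 CPM at ZT14 and 410 ± 56.4 at ZT18, and Hspa5 at 1235 ± 316 and 1317 ± 563, with differences between these times that were smaller than the SD at ZT18. Over the heat shock list of 23 genes, 2 were higher and 3 lower from ZT14 to ZT18 and 6 were lower from ZT18 to ZT22. Among all 17994 genes, 379 were higher and 345 lower from ZT14 to ZT18, and 51 were lower from ZT18 to ZT22.

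**Figure D5:**
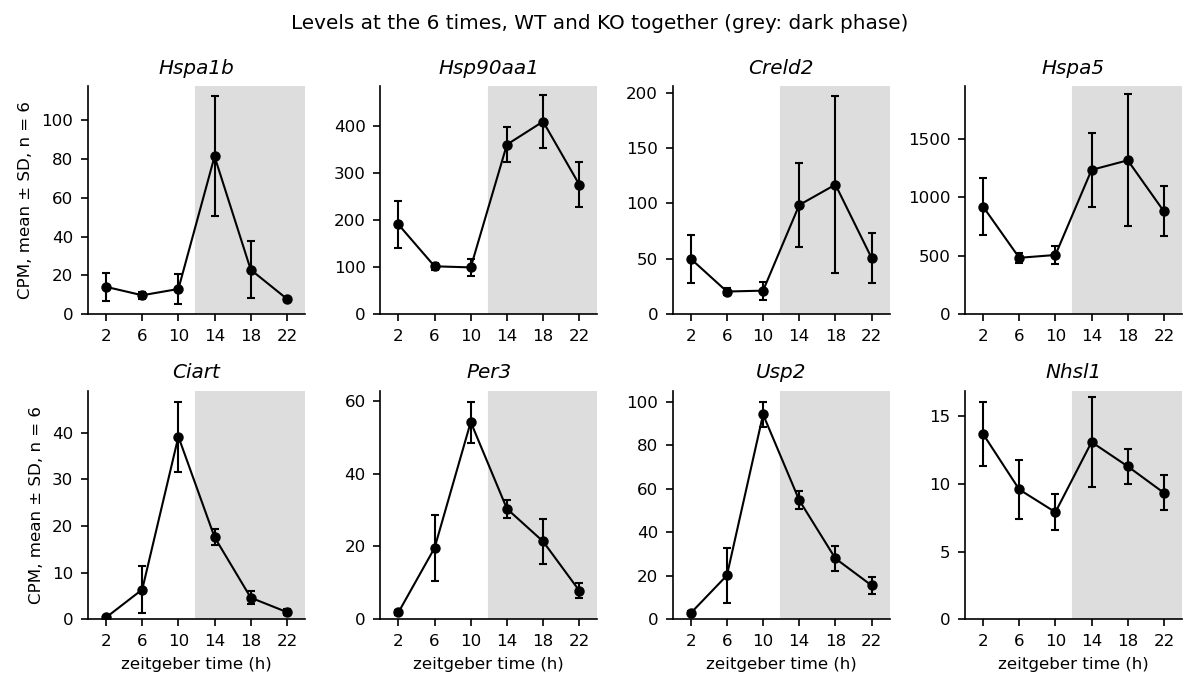
Mean CPM ± SD (vertical axis, 6 livers per point, WT and KO together) at the 6 sampled times (horizontal axis, zeitgeber hours, dark phase in grey) for 4 chaperone genes and 4 genes called in the same direction at lights-off and lights-on. Hspa1b is highest at ZT14 with 81.2 CPM, whereas Ciart, Per3 and Usp2 are highest at ZT10.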

How the data were processed

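Livers were sequenced as poly(A) RNA in non-directional TruSeq libraries. Per the submitters' processing notes and the study's methods, the authors aligned reads to GRCm38 (mm10) with HISAT2 and counted them per gene with featureCounts; the deposited table holds these raw counts with gene positions and names. Library totals (31162685 to 42530551 in these 12 libraries) limit the precision of low counts, and intervals cover the spread between these mice.

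Genes with at least 100 counts summed over the 36 libraries were fitted in edgeR 4.0.16 (R 4.3.3) with TMM scaling and the quasi-likelihood test, time and genotype as terms, Benjamini-Hochberg adjustment over 17994 genes and a threshold of 0.05. CPM are TMM-scaled over the 12 libraries unless stated. Genotype steps and their difference came from a model of 4 groups, other steps from their own 12 libraries, and the contrast of transitions from all 36. DESeq2 1.42.0 and other alternatives are described below. The fits were tested on simulated data.

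Named genes were the 12 largest rises and 12 largest falls under the conditions given in the text, list members, the 6 smallest p of the genotype difference, Thrb, and 6 genes called alike at both transitions. The comparison, members and lists were chosen with earlier results of these data known. Promoters came from RefSeq. Near-identical copies were sought with BLAST. Some other called genes overlap a gene of higher count on the opposite strand, among them Fdft1 with Ctsb and Hspe1 with Hspd1. No sample was left out, and no batch is given in the labels. Results for some genes that the rule names are not reported here.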

Additional observations from a re-analysis of the deposited data

Results flagged for a closer look

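In 5 of 74 groups of 6 livers examined, 1 liver lay farther from the others than Dixon's criterion allows, which chance gives in about 1 in 20 groups. At ZT10, Hspa1b was at 28.1 CPM in WT replicate a against 8.72 to 11.6 in the other 5, and Creld2 was at 37.1 CPM in WT replicate c against 14.6 to 20.9. At ZT10, Gm12346 was at 0.768 CPM in KO replicate c against 1.35 to 1.62. At ZT14, Gm31583 was at 2.7 CPM in KO replicate c against 15.3 to 19.8, and 3110070M22Rik was at 0.438 CPM in KO replicate a against 0.666 to 0.773.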

How the results depend on the processing

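The step was fitted again with 20 alternatives, and no called gene named in the text changed direction. Thrb (-0.04) and Clec4g (-0.03), neither of them called, ranged from -0.08 to 0.01 and from -0.12 to 0.03. The count of called genes was 3322 with DESeq2, 3352 with all 36 libraries in the fit, 2806 with RLE scaling, 2883 with edgeR's own filter, 2600 without a filter, 2785 with robust dispersion and 2281 to 2691 with 1 library left out. Higher and lower genes numbered 1165 to 1412 and 1100 to 1345 with 1 library left out. With WT and KO of one time and letter summed, 1529 genes were called, 862 higher (56.4%, against 50.6% in the 12 libraries) and 667 lower. Within WT the count was 1364 with DESeq2, 1301 with all 36 libraries and 272 to 879 with 1 library left out, and within KO 1536, 1458 and 377 to 977. The genotype difference gave 1 gene with DESeq2, 1 without a filter, and 0 with any 1 library left out. The cause of these differences was not tested.

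Of 147 named genes that were called, 113 kept their call in every alternative and 34 lost it in at least 1, 8 of them only when WT and KO were summed. All 24 genes named for their size kept it. Counts per gene list under the same alternatives were added after seeing the data: heat shock gave 18 to 20 higher, unfolded protein response 15 to 18, ribosome biogenesis 19 to 25 and core clock 5 higher and 5 to 8 lower, whereas red blood cell markers gave 0 to 5 lower and fed-state genes 3 to 7 higher.

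Replicate letters repeat between groups. Livers of one genotype and letter at ZT10 and ZT14 deviated together with correlations of -0.04 to 0.34, under 0.1 in 4 of 6 pairs, and 4 of 12 libraries correlated best with their own letter, so the letters were not taken to pair livers across the times. Within a time, WT and KO livers of one letter correlated at 0.27 to 0.37 at ZT10 and at -0.09 to 0.21 at ZT14. With the letter as a replicate block, 2975 genes were called, 790 in WT and 981 in KO. Separate mice were culled at each time, and time cannot be told apart from any order of collection or handling.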

Other observations

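Further lists were counted in the step, in which 15.6% of all genes were called, 7.73% lower. Of 23 autophagy genes 4 were lower (17.4%) and none higher, led by Gabarapl1 (log2 -0.89, SE 0.0876, adjusted p = 2.3e-05), a member of the ATG8 family that builds autophagosomes, with Atg14 (-0.64), the initiating kinase Ulk1 (-0.60) and Atg7 (-0.29). Of 12 genes of NAD metabolism and sirtuins 3 were lower (25%), Nmnat3 (a mean of 8.16 CPM to 4.09 CPM, adjusted p = 9.4e-05), Sirt3 (-0.33) and Nadsyn1 (-0.31), and Nampt, the rate-limiting enzyme of NAD salvage, stood at 0.17 (adjusted p = 0.341). The calls of Atg7, Sirt3 and Nadsyn1 were lost when WT and KO of one time and letter were summed.

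Of 31 genes of amino acid catabolism and the urea cycle 2 were higher, Gldc (0.58) and Nags (0.32), and 1 was lower, Agxt (-0.47, lost when summed), a share called of 9.68%. Of 20 genes of drug metabolism and haem synthesis 1 was lower, Cyp3a25 (-0.28, adjusted p = 0.0408), and that call was lost when any of 11 single libraries was left out. Of 26 cell cycle genes 15.4% were called. The higher ones were Cdkn1a and the cyclin Ccnd1 (1.04, lost with robust dispersion and without KO replicate a or c of ZT10), and 2 were lower, Wee1 and Ccne1 (-0.64, adjusted p = 0.0495, lost without any of 10 single libraries).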
